A study of Mus musculus with 12 samples.

Results

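The baseline of metabolic gene expression in the fetal mouse heart was described in the 4 wild-type hearts of a study of 12 hearts, chosen by their label alone. The study examined the mitochondrial citrate carrier Slc25a1 in the developing heart, and it took hearts of 3 genotypes at E17.5, late in gestation, from timed matings of heterozygous Slc25a1 knockout mice. The 4 hearts described here carried the Slc25a1 WT genotype, came from such matings, had no treatment listed, and were used here without the other genotypes. Total RNA of each heart was extracted with a RNeasy Micro kit and 768 genes were counted on the NanoString nCounter, which reads hybridised barcoded probes molecule by molecule without amplification. The labels name no strain, sex, litter or batch, so the spread between the 4 samples may hold technical as well as biological differences.

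The fetal heart beats in low oxygen and is known to depend more on glycolysis and lactate than the adult heart, which burns mostly fatty acids. Pyruvate from glycolysis enters mitochondria, is oxidised in the tricarboxylic acid (TCA) cycle, and feeds electrons to respiratory complexes I to IV, whose proton gradient drives the ATP synthase, complex V. Many of the enzymes on this route exist as isoforms encoded by separate genes, of which some are typical of striated muscle and others are found in most cells.

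Each gene is given as its ratio to Tbp, the TATA-binding protein of the transcription machinery, in the same heart, as the authors deposited it. Values for the 4 hearts are listed in the order of WT replicates 1, 2, 3 and 4. Within a heart the ratios are whole numbers over 1 shared count, which returned the smallest counts they allow: Tbp itself had 276, 355, 355 and 294 counts, the whole panel 1389649, 1389025, 1501554 and 1565516 counts. Counting error of Tbp alone is 5.31% to 6.02% and is shared by every ratio in a heart, whereas ranks, isoform shares and shares of counts do not carry it. Levels of different genes are levels of different probes, whose binding differs, so the order of genes is an order of probe signals. No p-values are given: the 4 samples belong to 1 group, and values within them are described with their spread.

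The 4 hearts ranked the panel nearly alike, and WT replicate 2 stood apart from the others. Spearman's rho across the 768 genes, which are not independent and share the probe set, was between 0.987 and 0.993 for the 6 pairs of hearts. Chi-square per degree of freedom between hearts lay between 2.81 and 29.3, so no pair was close enough to be a single library deposited again. With each heart centred on its median on a log2 scale, 508 genes that averaged 100 counts or more were compared. WT replicate 2 was the lowest heart for 276 of them and the highest for 117. Its median count was the highest, 356.5 against 305, 338.5 and 338, so these numbers depend on the centring. On the same centred scale WT replicate 2 was the lowest heart for 16 of 22 pathway lists. Its values are therefore shown separately wherever a result rests on them.

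The hearts could not be checked against cardiomyocyte contractile genes: none of the 23 defining cardiomyocyte markers listed, and none of the 11 red-cell markers, was among the 768 genes. Metabolic isoforms known from striated muscle, of which 6 of 16 were measured, had a median ratio of 7.80, against a median of 0.0659 for 19 liver and gut genes and 0.0602 for 22 genes of T, B and NK cells. These levels cannot tell fewer cells of a type from less RNA per cell, here or in any result below.

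The most abundant transcripts belonged to glycolysis and the respiratory chain. Gapdh, which oxidises glyceraldehyde 3-phosphate in glycolysis, ranked first in every heart at 434.9, 321.8, 370.7 and 467.3 times Tbp, or 8.60% ± 0.258 of all counts (SD, n = 4). Aldoa, the muscle-type aldolase that splits the hexose bisphosphate into triose phosphates, stood at 158.7, 115.0, 132.5 and 167.3 times Tbp. Rplp0, a ribosomal stalk protein, shared places 2 and 3 with Aldoa, at 158.8, 136.9, 131.0 and 158.7 times Tbp, and the order of this pair turned between hearts. The ratios of all 3 were lower in WT replicates 2 and 3 than in 1 and 4, and Tbp had the same count, 355, in both of those hearts.

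Subunits of cytochrome c oxidase, complex IV, came next. Cox6a1, the widely expressed form of subunit VIa, ranked behind these 3 in every heart at 125.0, 86.2, 98.5 and 132.9 times Tbp. Cox5a stood at 121.3, 80.1, 98.3 and 131.7 times Tbp. Cox5b at 97.7 ± 19.7, Cox7c at 92.6 ± 16.6 and Cox6b1 at 70.8 ± 13.6 times Tbp held places within the 9 highest in all 4 hearts, with the ubiquitin gene Ubb among them at 85.4 ± 6.95. Complex III followed with Uqcrq at 67.5 ± 13.6, Uqcr10 at 65.7 ± 12.3 and Uqcr11 at 59.2 ± 10.6 times Tbp. Neighbours in this order mostly do not differ beyond their spread: among the 50 highest genes only 20 of 49 neighbouring pairs kept the same order in all 4 hearts.

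The remaining genes of the 25 highest joined mitochondrial oxidation with protein and polyamine control. Acadl, the long-chain acyl-CoA dehydrogenase of fatty acid oxidation, stood at 69.1, 50.6, 57.2 and 75.7 times Tbp, a level shared with Ldhb and Ldha. Citrate synthase, Cs, which makes the citrate that Slc25a1 exports, stood at 60.7, 41.9, 49.5 and 64.0 times Tbp. The ATP synthase subunit Atp5k had 54.3 ± 10.7, the complex I subunits Ndufb8, Ndufb10 and Ndufa12 had 48.5 ± 9.46, 45.5 ± 8.87 and 43.7 ± 8.10, pyruvate kinase Pkm 43.4 ± 7.89 and fumarase Fh1 38.9 ± 7.79 times Tbp. Outside energy metabolism, Oaz1, the antizyme that limits polyamine synthesis, had 50.1 ± 7.26, the nucleolar chaperone Npm1 48.4 ± 4.10, and integrin beta 1, Itgb1, 46.8 ± 4.25 times Tbp.

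A small set of genes held most of the signal. The 5 highest genes took 19.6% ± 0.446 of all counts, the 25 highest 45.5% ± 1.25 and the 100 highest 76.9% ± 1.53, while the 384 highest took 97.7% ± 0.293. Of the 25 highest genes by mean, 24 were among the 25 highest in every heart, and only 26 genes reached that place in any heart. Relative to Tbp, 376 genes were above it in all 4 hearts, 361 below it in all 4, and 30 lay on both sides. By mean ratio, 5 genes lay above 100, 89 between 10 and 100, 294 between 1 and 10, 221 between 0.1 and 1, and 159 below 0.1.

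**Figure D1:**
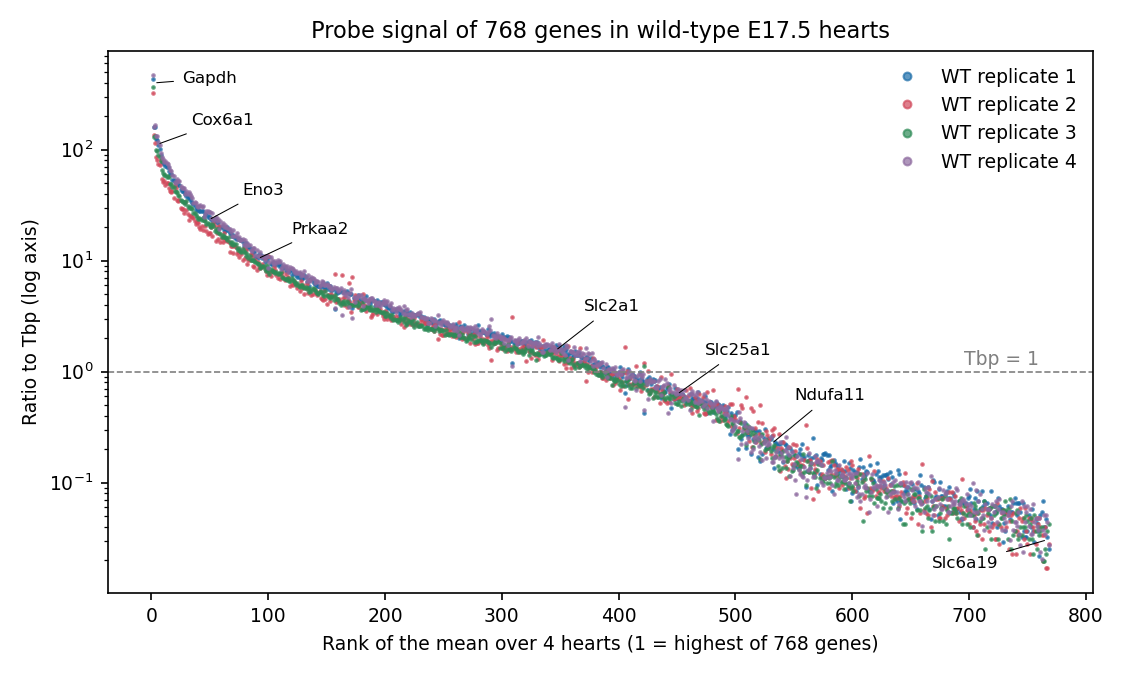
Ratio to Tbp (log axis) of each of the 768 genes against the rank of its mean, with 1 point for each of the 4 wild-type hearts. Gapdh stands alone at the top with a mean of 398.7 times Tbp, and the points of the 4 hearts fan out toward the lowest ranks, where Slc6a19 has a mean of 0.0307.

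The respiratory chain as a whole made up a large part of the signal. The 33 measured subunits of complexes I to V took 28.0%, 25.1%, 27.6% and 28.7% of counts, and 12 of them were among the 25 highest genes. With glycolysis and the TCA cycle added, 54 genes took 50.1%, 45.7%, 49.7% and 51.2% of counts and filled 19 of the 25 highest places. WT replicate 2 had the lowest share in both sums. These shares describe a panel used to examine metabolic genes and not the whole transcriptome.

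Subunits of a complex work in fixed proportion as protein, but their probe signals covered a wide range. In complex I, the NADH dehydrogenase, 16 of 17 measured subunits lay between 5.59 (Ndufb11) and 48.5 (Ndufb8) times Tbp. The exception was Ndufa11, a membrane-arm subunit, at 0.246, 0.180, 0.194 and 0.259 times Tbp, which is 68, 64, 69 and 76 counts. In complex IV, 6 of 8 subunits lay between 37.8 (Cox4i1) and 110.7 (Cox6a1) times Tbp, whereas Cox7b had 0.884, 0.673, 0.766 and 0.929, and Cox8a 0.569, 0.566, 0.594 and 0.762. These 3 subunits were low in every heart, with no overlap with the rest of their complex. Whether their probes bind less well or the transcripts are rarer was not tested, since no probe sequences were at hand. The 3 subunits of complex II, succinate dehydrogenase, lay close together, Sdhb at 36.9 ± 8.1, Sdha at 32.9 ± 7.9 and Sdhc at 32.9 ± 6.3 times Tbp.

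All 10 measured TCA cycle genes lay above the panel median. Below Cs, the members ran from Fh1 through Idh3a, the catalytic subunit of the NAD-linked isocitrate dehydrogenase, at 37.8 ± 7.2, to Ogdh, the first component of the oxoglutarate dehydrogenase, at 15.4 ± 3.1 times Tbp. Idh2, the NADP-linked enzyme of mitochondria, was the lowest, at 7.40, 5.02, 5.63 and 8.14 times Tbp. WT replicate 2 was the lowest heart for this gene and for Cs.

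Glycolysis spanned the widest range of the energy lists, 616-fold on average between Gapdh and Gpi1, the glucose-6-phosphate isomerase. Gpi1 had 0.656, 0.538, 0.566 and 0.854 times Tbp, although it catalyses an obligatory step. Hk2, the insulin-responsive hexokinase of muscle, was the only other of 14 glycolytic genes below Tbp on average, at 0.882 ± 0.106. Pgk1, which makes ATP from bisphosphoglycerate, stood at 13.9 ± 2.56 and Pgam2, the muscle phosphoglycerate mutase, at 10.1 ± 1.74 times Tbp.

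**Figure D2:**
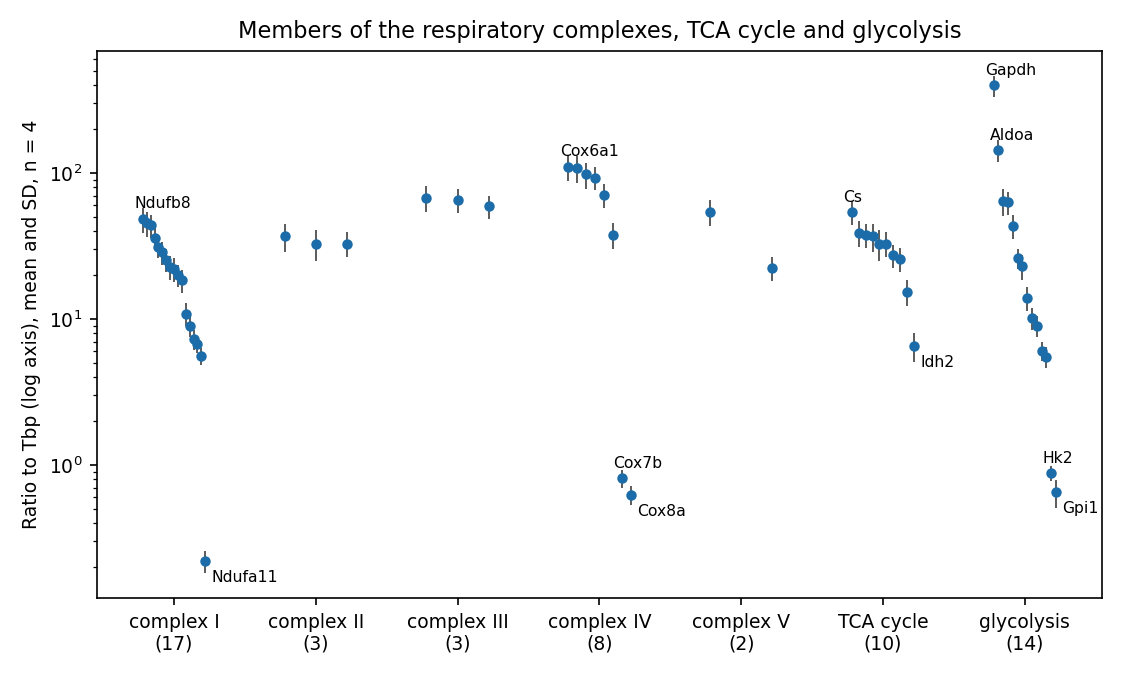
Mean ratio to Tbp (log axis) with the SD over 4 hearts for every measured member of the respiratory complexes, the TCA cycle and glycolysis, in descending order within each set; numbers in brackets are measured members. Ndufa11 at 0.220, Cox8a at 0.623 and Cox7b at 0.813 stand below the other subunits of their complexes.

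Isoform use was compared within families, as the share that each member took of its family's summed counts in a heart. Of 71 families listed, 33 had at least 2 measured members, 88 genes in all, and in 31 of them the same member was highest in all 4 hearts. The leading member took over 90% of the signal in 6 families, 60 to 90% in 17 and 60% or less in 10. Shares still compare different probes, so a share near 50% does not show that 2 transcripts were equal, while a steady share across hearts does not depend on that.

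In enolase, the step that makes phosphoenolpyruvate, the muscle form Eno3 exceeded the widely expressed Eno1 in every heart. Eno3 had 24.8, 17.4, 21.6 and 28.1 times Tbp, and Eno1 10.7, 7.96, 7.64 and 9.74. The groups of values did not overlap. Eno3 took 69.9%, 68.6%, 73.9% and 74.2% of the family, 71.7% ± 2.85 on average, or 2.54 times the Eno1 signal with a range from 2.18 to 2.88. The share was lower in WT replicates 1 and 2 than in 3 and 4. Eno3 had more counts in the last 2 hearts, whose panel totals were also larger, and Eno1 had 2712 to 2948 counts in all 4. These counts are not scaled to the totals, so they do not show which of the 2 genes differed.

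Other steps of glycolysis did not show the same preference for a muscle form. Among the hexokinases Hk1, the widely expressed form, had 28.73, 21.96, 23.67 and 30.60 times Tbp, a mean of 29.6 times the Hk2 signal with a range from 27.4 to 32.1. Phosphofructokinase was near balance, with the liver form Pfkl at 52.1%, 53.0%, 52.6% and 52.0% and the muscle form Pfkm at the rest, 47.6% on average. Pfkl was above Pfkm in all 4 hearts, though by a mean of only 1.10 times. Pyruvate kinase came down to a single gene, Pkm, over the liver form Pklr, which took 0.127%. Pgam1 and Pfkp were not analysed here.

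Lactate dehydrogenase was the most even of these families. Ldhb, the heart-type subunit that favours lactate oxidation, had 70.6, 47.9, 59.3 and 79.5 times Tbp, and Ldha, the muscle-type subunit, 69.7, 50.1, 57.7 and 74.7. Ldhb was higher in 3 hearts and lower in WT replicate 2, with a ratio between 0.956 and 1.06, so the 2 signals were not separated by the spread between hearts. The testis form Ldhc took 0.0653%. Export and import of lactate runs through monocarboxylate transporters, among which Slc16a1 had 8.28, 5.89, 6.53 and 8.75 times Tbp. Slc16a3, the form known from glycolytic tissue, had 5.649, 4.499, 5.310 and 6.088. Slc16a1 was the higher of this pair in all 4 hearts, by a mean of 1.36 times with a range from 1.23 to 1.47.

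Glucose transporters were low beside the enzymes that use glucose. Slc2a1, the basal transporter prominent in fetal heart, had 1.60, 1.47, 1.35 and 1.66 times Tbp and 48.2% of the family. Slc2a8, an intracellular transporter, took 30.4% and Slc2a3, the neuronal form, 17.1%. The insulin-responsive form Slc2a4 was not analysed here.

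Among pyruvate dehydrogenase kinases Pdk1 gave the largest signal. These kinases switch off the enzyme that turns pyruvate into acetyl-CoA, and Pdk1 is the member known as a target of hypoxia signalling. Pdk1 had 14.4, 10.5, 12.0 and 15.4 times Tbp and took 53.1% ± 1.28 of the family, Pdk2 24.5%, Pdk3 12.8% and Pdk4, the member known to rise with fatty acid use, 9.62%. Pdk4 differed little between hearts at 2.46, 2.28, 2.28 and 2.31 times Tbp. The dehydrogenase subunit Pdha1 stood at 31.8 ± 5.5 times Tbp. Of the 2 proteins that form the mitochondrial pyruvate carrier, Mpc2 had 25.7 ± 5.4 and Mpc1 3.96 ± 0.64 times Tbp.

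Families that bear on fatty acid oxidation and energy sensing had their largest signal from members known from muscle. Acacb, the acetyl-CoA carboxylase at the mitochondrial surface whose product blocks fatty acid entry, took 72.9%, 65.4%, 72.6% and 72.3% over Acaca, the cytosolic form that serves lipid synthesis. WT replicate 2 was the low heart here, with 1448 Acacb counts against 1732 to 1821 in the other hearts, and 767 Acaca counts against 643 to 698. Prkaa2, the catalytic subunit of AMP-activated kinase that is prominent in striated muscle, took 78.1%, 74.9%, 79.6% and 80.4% over Prkaa1. The partners were Prkab2 at 80.0% ± 1.59 over Prkab1 and Prkag2, which is mutated in an inherited human cardiomyopathy, at 58.6% ± 2.11 over Prkag1. Ampd1, the AMP deaminase of skeletal muscle, was near the bottom of the panel at 18, 19, 12 and 11 counts, and Ampd2 led that family at 65.3%.

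**Figure D3:**
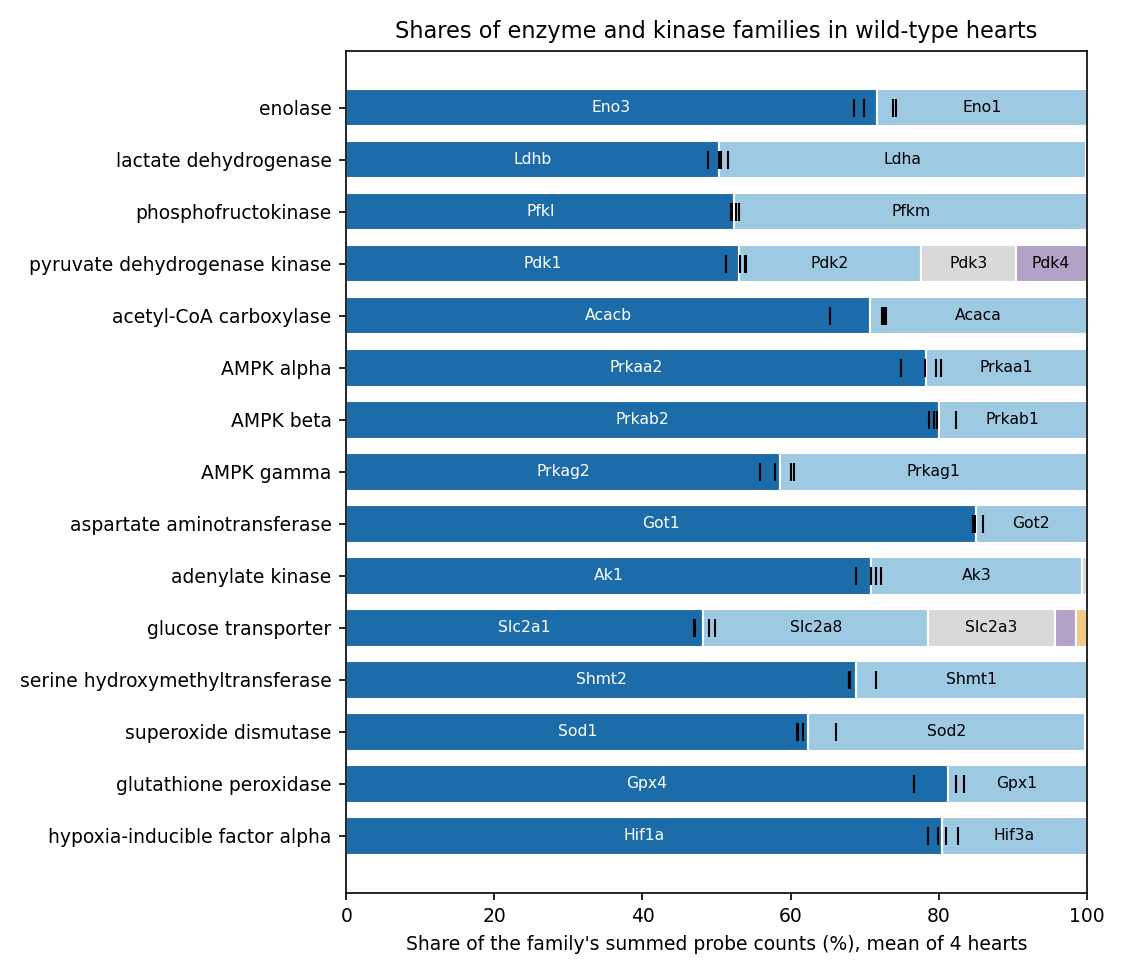
Share of the summed counts of a family (horizontal axis, %) taken by each member in 15 of the 33 families, as stacked bars of the mean over 4 wild-type hearts; black ticks are the share of the leading member in each heart. Eno3, Acacb and Prkaa2 lead at 71.7%, 70.8% and 78.2%, while Ldhb and Pfkl lie near the middle at 50.3% and 52.4%.

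Among enzymes that occur in the cytosol and in mitochondria, the leading form varied from family to family. Got1, the cytosolic aspartate aminotransferase of the malate-aspartate shuttle, took 84.9%, 84.6%, 86.0% and 84.7% over the mitochondrial Got2, a mean of 5.69 times its signal. Shmt2, the mitochondrial serine hydroxymethyltransferase, took 67.9%, 71.6%, 68.1% and 67.8% over the cytosolic Shmt1. Isocitrate dehydrogenase signal came mostly from the 3 subunits of the NAD-linked enzyme, Idh3a at 37.0%, Idh3g at 26.7% and Idh3b at 25.4%, with mitochondrial Idh2 at 6.39% and cytosolic Idh1 at 4.52%. Cytosolic Ak1 took 70.9% of the adenylate kinases and mitochondrial Ak3 28.5%. Cytosolic Sod1 took 62.4% ± 2.52 of superoxide dismutases and mitochondrial Sod2 37.4%. Gpx4, which reduces lipid peroxides, took 83.4%, 76.7%, 82.4% and 82.3% over Gpx1.

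Most signalling families also kept a fixed order. Among AKT kinases Akt1 stood at 8.88 ± 1.1 times Tbp and Akt2, the form tied to insulin action, at 1.75 ± 0.13. The lipid kinase subunit Pik3ca took 71.6%, S6 kinase Rps6kb1 65.6% and Hif1a, the oxygen-regulated transcription factor, 80.5% over Hif3a. Srebf2, the factor for sterol synthesis genes, took 79.9% over Srebf1, the factor for fatty acid synthesis genes. In the RAS family Hras at 41.5% and Nras at 40.6% were not separated, and Nras was the higher of them in WT replicate 2. Tk1, the thymidine kinase of dividing cells, took 94.8% over the mitochondrial Tk2, and Impdh2, the proliferative IMP dehydrogenase, 73.3% over Impdh1.

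Pathway levels were summarised in each heart as the median of a list minus the median of all 768 genes, on the log2(count + 1) scale. Complex IV was highest at 6.24 ± 0.19, followed by complex III at 5.94 ± 0.18, complex V at 5.03 ± 0.19, complex II at 4.97 ± 0.22, the TCA cycle at 4.94 ± 0.23, complex I at 4.36 ± 0.21 and glycolysis at 4.06 ± 0.21 (SD, n = 4 throughout). The order rests on the median: with members averaged instead, complex IV stood at 4.75, behind complex III at 6.11, complex V at 5.24, complex II at 5.20 and the TCA cycle at 4.88, and glycolysis at 4.19 passed complex I at 4.01. Complex IV holds Cox7b and Cox8a among its 8 members. Complexes V, II and the TCA cycle, which shares its 3 Sdh genes with complex II, lay within their spread of each other. Of the 22 pathway lists, 21 had a level above the panel's median gene. The lists differ in how many of their genes were on the panel, from 2 of 31 for complex V to 19 of 21 for nucleotide salvage and breakdown.

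Fatty acid uptake and oxidation stood lower, at 3.46 ± 0.18, with 7 of 8 members above the panel median. After Acadl came Cd36, the fatty acid translocase, at 20.04, 14.73, 17.33 and 22.92 times Tbp. Cpt1a, the liver-type carnitine palmitoyltransferase that lets long-chain fatty acids into mitochondria, stood at 2.64, 2.02, 2.01 and 2.40 times Tbp, and the fatty acid transporter Slc27a1 was lowest at 0.915 ± 0.087. The muscle form Cpt1b was not analysed here. Fatty acid and sterol synthesis lay at 0.76 ± 0.09, from Srebf2 at 6.88 ± 0.96 down to the desaturase Scd1 at 0.347 ± 0.041 times Tbp. Slc25a1, which hands citrate from mitochondria to this pathway, had 167, 217, 218 and 183 counts, or 0.605, 0.611, 0.614 and 0.622 times Tbp, and ranked 449 of 768. It was the gene that the study deleted in other embryos. In these hearts its ratio varied less than the counting error of Tbp alone, although its own counts carry counting error as well. The closeness is on the Tbp scale, as the counts themselves ran from 167 to 218. It does not show that Slc25a1 varies less than other genes.

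Biosynthesis and growth lists lay between. Nucleotide synthesis stood at 1.71 ± 0.10, led by the diphosphate kinase Nme2 at 29.2 ± 4.3 and the ribonucleotide reductase subunit Rrm1 at 12.0 ± 1.9 times Tbp, with thymidylate synthase Tyms lowest at 0.700 ± 0.039. Nucleotide salvage and breakdown was the only pathway list below the panel median, at -0.27 ± 0.15, although adenosine kinase Adk reached 13.6 ± 2.1 times Tbp; its lowest members were Pnp and Ampd1. Cell cycle genes stood at 1.49 ± 0.07, with all 8 above the panel median. Ccna2, cyclin A2 of S and G2 phase, had 11.39, 8.71, 9.34 and 10.97 times Tbp and the proliferation marker Mki67 8.98, 7.61, 7.90 and 8.45.

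Redox genes stood at 1.34 ± 0.06, led by thioredoxin Txn1 at 40.1, 33.6, 32.6 and 40.2 times Tbp and by Gpx4 at 27.0 ± 4.3. The cystine importer Slc7a11, a known target of stress signalling, was lowest of the 16 members at 32, 19, 20 and 20 counts. Its partner subunit Slc3a2 had 1.90 ± 0.20 times Tbp. Serine and one-carbon genes stood at 0.51 ± 0.06, with the methionine adenosyltransferase Mat2a at 17.8 ± 2.0 and Psat1 at 5.19 ± 0.84, while Phgdh, which opens serine synthesis, had 0.782 ± 0.072 times Tbp. The glutamine list stood at 0.57 ± 0.06, where the shuttle enzyme Got1 led at 25.5 ± 5.1 times Tbp and the liver glutaminase Gls2 was last at 0.097 ± 0.033. In the pentose phosphate list, at 0.79 ± 0.09, transaldolase Taldo1 and transketolase Tkt, at 9.79 ± 1.2 and 3.90 ± 0.29, stood above the first enzyme G6pdx at 0.526 ± 0.032.

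The mTOR and AMPK list stood at 1.29 ± 0.04, with 19 of 22 members above the panel median, Prkaa2 at 10.3 ± 1.8 and Akt1 at 8.88 ± 1.1 at its head and the mTOR inhibitor Deptor at its foot with 0.122 ± 0.023 times Tbp. A further contrast lay in amino acid sensing. Lamtor2 and Lamtor5, subunits of the lysosomal scaffold for mTOR, stood at 5.59 and 5.69 times Tbp, whereas Lamtor4 of the same scaffold had 11, 12, 7 and 15 counts and a mean ratio of 0.0361, among the 15 lowest of the panel. Lamtor4 was low in all 4 hearts, and whether its probe binds was not tested.

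The remaining pathway lists stood close to the panel median, apart from pyruvate entry at 2.20 ± 0.16. Autophagy and lysosome genes stood at 0.76 ± 0.27, the widest spread of any pathway list, led by the protease Ctsd at 21.9 ± 1.0 times Tbp. Hypoxia genes stood at 0.53 ± 0.02, with Hif1a at 20.1, 15.2, 15.3 and 19.5 times Tbp and Car9, a carbonic anhydrase induced by low oxygen, at 0.168 ± 0.039. Housekeeping genes, at 0.88 ± 0.05, covered the range from Rplp0 to Nrde2 at 0.342 ± 0.072. Amino acid transporters stood at 0.20 ± 0.07 with only 4 members, and their place was below the panel median when members were averaged or genes of low count were dropped.

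**Figure D4:**
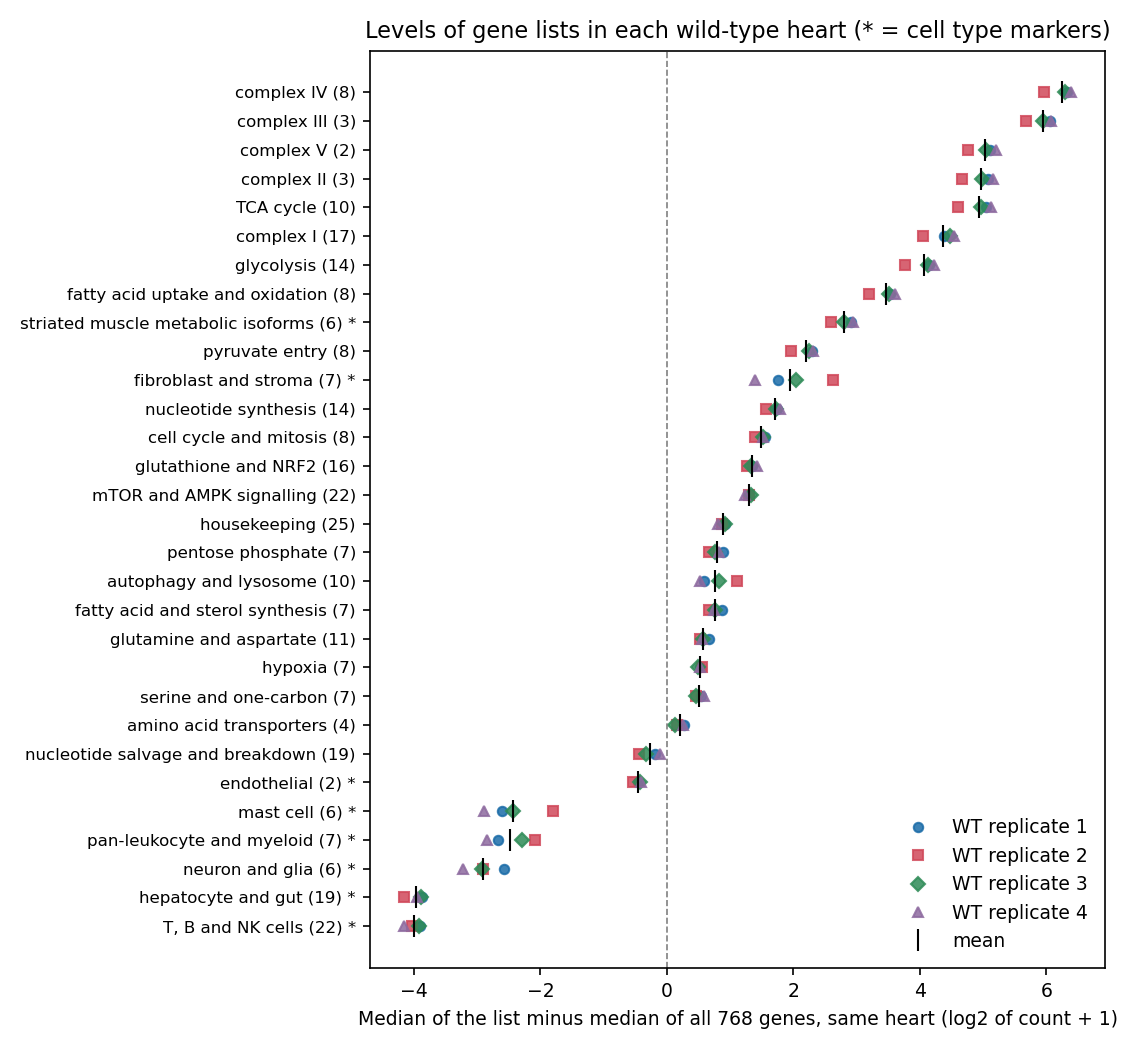
Level of each of 22 pathway lists and 8 cell type marker lists in each heart, as the list median minus the median of all 768 genes (horizontal axis, log2), with the number of measured genes in brackets. WT replicate 2 lies left of the other hearts in the energy lists, such as the TCA cycle at 4.60, and right of them in the stroma list at 2.63.

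Promoter sequence was set beside these levels, because CG dinucleotides cluster at the promoters of genes used in most cells. RefSeq windows of 300 bases, from 250 before to 50 after the annotated start (GRCm38.p6), were matched by symbol for 604 genes, of which 499 had a single window. Cut into 4 classes of equal size of the panel by mean ratio, high to low, the windows had a median of 21, 22.5, 13 and 6 CG dinucleotides, against 7 over 22862 RefSeq genes with a single window. The letters CCAAT, on either strand, were found in 53.8%, 46.0%, 35.5% and 35.3% of windows by class, against 38.2% of all RefSeq windows. The letters TATAAA, on either strand, were found in 12.9%, 7.26%, 16.1% and 16.8%, against 14.8%. None of the 19 liver and gut genes and none of the 22 lymphocyte genes lay above the panel median, and their part in the difference between classes was not tested.

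The windows below show both ends of this range and 2 muscle isoforms with few CG, printed 5' to 3' on the strand of the gene with each CG in capitals. Cox6a1 lies at chr5:115348909-115349208 on the minus strand and holds 32 CG, Eno3 at chr11:70656926-70657225 on the plus strand holds 3, Pgam2 at chr11:5803747-5804046 on the minus strand holds 1, and Slc6a19, the lowest gene, at chr13:73692587-73692886 on the minus strand holds 4.
Cox6a1: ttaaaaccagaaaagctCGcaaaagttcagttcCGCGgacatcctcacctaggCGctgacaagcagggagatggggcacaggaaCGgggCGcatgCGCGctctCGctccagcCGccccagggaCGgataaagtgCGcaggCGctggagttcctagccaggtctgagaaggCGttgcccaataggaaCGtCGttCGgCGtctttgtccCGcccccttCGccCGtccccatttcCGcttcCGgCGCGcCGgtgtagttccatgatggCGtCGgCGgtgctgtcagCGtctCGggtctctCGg
Eno3: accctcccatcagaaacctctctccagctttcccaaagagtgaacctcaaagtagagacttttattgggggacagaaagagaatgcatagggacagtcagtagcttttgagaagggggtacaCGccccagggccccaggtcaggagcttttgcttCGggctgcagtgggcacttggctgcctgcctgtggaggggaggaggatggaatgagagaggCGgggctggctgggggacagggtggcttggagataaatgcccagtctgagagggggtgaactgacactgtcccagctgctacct
Pgam2: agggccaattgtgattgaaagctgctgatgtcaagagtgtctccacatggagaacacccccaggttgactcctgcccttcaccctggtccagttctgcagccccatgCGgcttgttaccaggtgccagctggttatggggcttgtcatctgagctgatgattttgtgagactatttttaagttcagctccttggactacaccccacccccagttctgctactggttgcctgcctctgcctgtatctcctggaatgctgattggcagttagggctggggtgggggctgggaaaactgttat
Slc6a19: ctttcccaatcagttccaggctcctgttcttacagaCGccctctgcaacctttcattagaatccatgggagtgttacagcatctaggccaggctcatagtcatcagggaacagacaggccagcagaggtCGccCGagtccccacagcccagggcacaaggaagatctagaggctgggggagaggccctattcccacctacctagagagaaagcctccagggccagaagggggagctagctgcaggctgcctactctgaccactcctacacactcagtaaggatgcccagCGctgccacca

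Eno3 and Pgam2 were in the highest class at 23.0 and 10.1 times Tbp with as few CG as genes of the lowest class, whereas Prkaa2, at 10.3 times Tbp, held 35 in its window and Acacb, at 5.36 times Tbp, held 10. The 4 muscle isoforms with a single window thus ran from 1 to 35 CG. Genes not typical of muscle in these families ran as widely, with 1 for Acaca and 52 for Prkaa1.

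Near the bottom of the panel, 78 genes had a mean count under 20, and no gene had a count of 0 in any heart. The lowest count was 6, 6, 7 and 6 in the 4 hearts. The lowest 15 by mean were Creb3l3, Il2ra, Fbp1, Cd8a, Slc7a9, Haao, Apoa4, Glyat, Duox2, Nkg7, Lamtor4, H2-Ob, Cyp4a12a, Ncr1 and Slc6a19, with counts between 6 and 19. They are mainly genes of liver, kidney, gut and lymphocytes: Slc6a19 is the neutral amino acid transporter of kidney and gut, with 7, 10, 15 and 8 counts, Apoa4 an intestinal apolipoprotein, Cyp4a12a a cytochrome P450, and Ncr1 a receptor of NK cells. Their order was not stable. No gene was among the 25 lowest in all 4 hearts, and 58 genes were among them in at least 1.

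The spread of these genes between hearts was close to counting error: the median SD of log2(count + 1) over the 78 genes was 0.381, against 0.374 from counting error. Liver and gut genes had a median count between 19 and 22 in the 4 hearts, with 9 of 19 under a mean of 20, and T, B and NK genes between 18 and 21.5, with 11 of 22 under it. At this depth, genes at or under the median of the liver and gut list, 21 counts, which were 93 in all, could not be told from the signal of genes of other tissues. Negative control probes were not used here.

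Cell type markers were set beside that level. It is the median of the liver and gut list, so part of that list lay above it, up to Ass1 at 95 to 132 counts. A marker above it thus does not show that its cell type was present. Stroma genes as a list stood at 1.95 ± 0.52 above the panel median, with Col6a2, a collagen VI chain, at 9.05 ± 1.3 times Tbp. Of the 7 members, 4 lay above the panel median: Col6a1, Col6a2, Col6a3 and Thbs2. Thbs1, Pdgfrb and Itga11 lay below it, at 0.649, 0.631 and 0.155 times Tbp. The 2 endothelial genes measured, Flt1 and Nos3, had 0.897 ± 0.10 and 0.657 ± 0.085 times Tbp. Of 7 leukocyte and myeloid genes, Cd68 of macrophages was highest at 0.638 ± 0.21, and of 6 mast cell genes Cpa3, a mast cell protease, at 0.880 ± 0.53, both with a large spread. Of 6 genes listed as neuronal markers, the widely expressed Hk1 was highest at 26.2 ± 4.1 times Tbp. Ddc, the decarboxylase that makes dopamine and serotonin, was also listed and had 2.23, 1.28, 1.66 and 2.99 times Tbp. Tph1 and Nos1 had means of 0.151 and 0.130, and the neuronal enzymes Th and Gad1 means of 0.0525 and 0.0533. As lists, endothelial genes stood at -0.46 ± 0.06, mast cell genes at -2.43 ± 0.46, leukocyte and myeloid genes at -2.48 ± 0.35 and neuronal genes at -2.90 ± 0.26. Lymphocyte genes were mostly low, with means from 0.0326 for Ncr1 to 0.259 for the T-cell receptor subunit Cd247, which had 78 to 88 counts, and 11 of the 22 averaged 20 counts or more.

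Variation between the hearts differed by level. On the Tbp scale the median SD of log2(count + 1) over 690 genes averaging 20 counts or more was 0.198, against 0.105 from counting error. With each heart centred on its own median it was 0.134, against 0.066. By level, the centred median was 0.278 for 182 genes with mean counts of 20 to 100 (0.253 from counting), 0.096 for 292 genes of 100 to 1000 (0.071), 0.098 for 182 genes of 1000 to 10000 (0.031) and 0.189 for the 34 genes above 10000 (0.011). Spread exceeded counting error most at the top, where the energy genes lie.

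The 10 most variable genes among the 508 that averaged 100 counts or more were all highest in WT replicate 2. Mast cell protease Tpsb2 had 55, 246, 104 and 48 counts, and Cpa3 176, 591, 261 and 142. Cathepsin S, Ctss, a lysosomal protease of macrophages, had 116, 421, 396 and 133 counts, high in WT replicates 2 and 3. Collagen Col6a3 had 1155, 2656, 1504 and 943 counts, and the matrix protein Thbs2 1035, 2543, 1422 and 887. All of these genes but Ctss had a single clear maximum in WT replicate 2, which was also the heart with the lowest energy lists.

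The other 5 were the receptor Egfr with 57, 210, 78 and 67 counts, the iron carrier Trf with 330, 1110, 565 and 331, the nuclear receptor Nr2f1 with 68, 177, 121 and 65, the lipid carrier Apoe with 1018, 2667, 1743 and 1110, and Cd68 with 130, 336, 218 and 153. Without WT replicate 2 the SD of log2 was 0.153 over 3 hearts for Egfr, against 0.767 over 4. It was 0.562 against 1.00 for Tpsb2 and 0.918 against 0.921 for Ctss. In WT replicate 2 the stroma list stood at 2.63 against a median of 1.76 in the other hearts, and mast cell genes at -1.80 against -2.61. Leukocyte and myeloid genes stood at -2.09 against -2.67, and autophagy and lysosome genes at 1.12 against 0.59. Members of a list did not all follow. By ratio to Tbp, Cpa3, Hdc and Tpsb2 were highest in this heart, whereas the mast cell genes Ms4a2, Fcer1a and Tpsab1 were highest in others. By the same ratio, Pdgfrb of the stroma list was lowest there at 0.608, although its other members were highest there. The Pdgfrb ratios, 0.627, 0.608, 0.631 and 0.656, lay close together beside the counting error of Tbp, 5.31% to 6.02%. By counts, which ran from 173 to 224, Pdgfrb was not lowest in this heart, so its place depends on the scale. Of the leukocyte list, Cd68, Cybb, Ptprc and Itgam were highest in this heart by ratio to Tbp, and Cd14, Cd163 and Ms4a1 were not. Cd163 had only 18 to 25 counts, with the most in WT replicate 2, so its place also depends on the scale. In the same heart the TCA cycle stood at 4.60 against 5.05 and the striated muscle isoforms at 2.59 against 2.91. The part of cell makeup in these values was not tested.

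**Figure D5:**
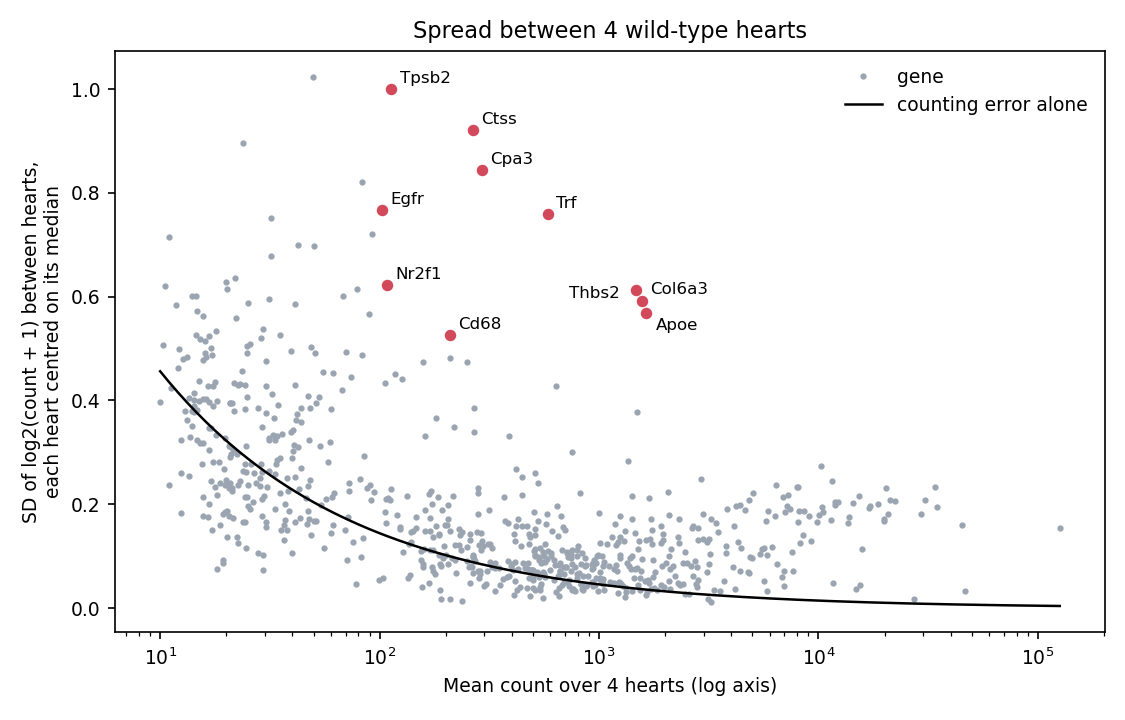
SD of log2(count + 1) between 4 wild-type hearts, each centred on its median, against the mean count (log axis) for 768 genes, with the line that counting error alone would give. The 10 labelled genes, from Tpsb2 at 1.00 to Cd68 at 0.526, lie far above the line, and most genes with mean counts under 20 scatter around it.

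Genes with the smallest spread at 100 or more counts on average included the coat protein Sec13, the helicase Brip1, the stress factor Nfe2l2 and Ubb, with an SD of log2 between 0.011 and 0.018 after centring. These are the smallest values of 508 genes, and for Sec13, Brip1 and Nfe2l2 they lay under the counting SDs of 0.025, 0.094 and 0.105, so they do not show that these genes vary less than others. For Ubb the counting SD was 0.0088. Sec13 had 2928, 3454, 3283 and 3225 counts, and Ubb 24875, 28559, 27873 and 27204. Their counts were lowest in WT replicate 1, as was the median count of the panel at 305, against 356.5, 338.5 and 338 in the others.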

How the data were processed

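The deposited table holds 768 genes in 12 hearts as ratios: per the labels, total RNA was analysed on the NanoString nCounter, and in the file the authors' ratio of Tbp is 1 in each heart. No source used here states a background or control correction. The 4 columns titled as WT hearts were used and the other 8 were not. The count behind each ratio was recovered as the smallest multiplier that made all ratios of a heart whole within 0.01, a step tested on simulated data for the WT hearts, where all 768 counts returned in 20 of 20 runs. Multiplying by a larger whole number would give larger counts, so the recovered counts are the smallest possible. Counting errors are upper limits provided that the ratios were formed from counts without background subtraction. If background was subtracted first, counting errors could be larger, and the simulated data, built from the recovered counts, cannot tell. Ranks, family shares and list levels were computed per heart, then averaged (SD, n = 4). Levels of lists used a pseudocount of 1 count. Fold values are ratios of counts within a heart. No p-values were computed, since there is 1 group and an exact test over 4 hearts cannot reach the usual threshold. Single hearts were compared with the others by Dixon's critical value.

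The members and lists were chosen with earlier results of these data known. Named were the 25 highest and 15 lowest genes, members of families with at least 2 measured, the 10 most and 5 least variable, the 2 highest and 2 lowest of each list and the measured cell type markers. Genes outside this rule (Cox4i1, Lamtor2, Lamtor5, Mpc1 and Pgk1) were chosen after their values were seen. Some genes that the rule names are not reported here. Symbols matched RefSeq (GRCm38.p6) for 767 of 768. Python 3.11.15, numpy 2.4.6, pandas 2.3.3 and matplotlib 3.10.9 were used.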

Additional observations from a re-analysis of the deposited data

Results flagged for a closer look

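In 16 of 304 values examined, 1 heart lay farther from the other 3 than Dixon's 95% critical value for 4 samples allows. Chance alone gives such a value in about 1 in 20 groups, and over the whole panel it was passed by 33 of 767 genes (4.30%), with WT replicate 2 the outlying heart in 15 of them. The 16 are therefore given as values.

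Among family shares, WT replicate 2 stood apart in 4: Acacb at 65.4% and Gpx4 at 76.7% of their families were low there, while Shmt2 at 71.6% and Sod1 at 66.2% were high. The share of Idh3a was high in WT replicate 1 at 38.1%, and that of Pkm was low in WT replicate 4 at 99.85%. Among ratios to Tbp, Egfr was high in WT replicate 2 at 0.592. The pyruvate dehydrogenase kinase Pdk4 was high in WT replicate 1 at 2.46 and the complex IV subunit Cox8a was high in WT replicate 4 at 0.762. Transketolase Tkt was low in WT replicate 3 at 3.47, and the matrix gene Thbs1 was low in WT replicate 4 at 0.425.

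The other 5 were genes of low count. Lck was high in WT replicate 1 at 0.149 and Nos1 there at 0.181, Slc6a19 was high in WT replicate 3 at 0.0423, Cd6 was low in WT replicate 1 at 0.0290, and Foxp3 was low in WT replicate 2 at 0.0254.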

How the results depend on the processing

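The 25 highest genes were the same 25 with the median of the hearts, with scaling to the total or to housekeeping genes, with the lowest value subtracted and without each heart in turn. All 33 family shares stayed within their spread with summed counts. They also did so without each heart in turn, but leaving out 1 of 4 hearts cannot move a mean beyond its SD. That setting therefore says nothing of how stable the shares are. Subtracting the lowest value moved only 2 of the 33 shares, both above 99%. The number of genes near the lowest values depended on the limit: it was 78 for a mean count under 20, 0 under 10, 216 under 50, 34 with a count under 20 in every heart, 130 in any heart and 32 at most 3 times the lowest count in every heart, with 77 to 89 when 1 heart was left out. The median SD between hearts was 0.198 on the Tbp scale, 0.125 with housekeeping scaling, and 0.179 to 0.200 when 1 heart was left out. Of the pathway lists, 21 lay above the panel median, and 20 when members were averaged or when genes averaging under 20 counts were dropped: amino acid transporters, at 0.20 with 4 members, turned to -0.44 and -0.29 in those settings. Leaving out low genes raises the panel median and moved 26 of 30 lists beyond their spread, and averaging members moved 22, complex IV from the highest level, 6.24, to 4.75. Averaging all promoter windows of a gene, a setting chosen after seeing the data, left the median CG count at 21 in the highest and 6 in the lowest class. No paired analysis was possible because only 1 group was used and pairing by replicate number needs 2; ratios within a heart stand in the report. Counts near 6 to 20 limit what can be said of the lowest genes, and probe efficiency limits every comparison between genes.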
